A study of Mus musculus with 18 samples.

Results

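Cathepsins and other lysosomal proteins were followed through 10 genes that were chosen by name, out of 55291 gene symbols counted. These were the cathepsins Ctsb, Ctsd, Ctsl, Ctsz and Ctsh, the lysosomal membrane proteins Lamp1 and Lamp2, and the luminal proteins Grn, Npc2 and Psap. All 10 had counts in all 18 libraries. RNA was taken from the right hippocampus of male C57BL/6J mice (genotype WT in the labels) that were 6 weeks old at surgery, and 3 to 4 mice were pooled per sample. Every mouse, controls included, received AAV in the right CA3 region, which carried the ribosomal protein EGFP-Rpl10a under the GfaABC1D promoter, a promoter used to restrict expression to astrocytes. In the AAV control nothing else was injected and RNA was collected 2 weeks later. In the KA group, kainic acid (KA), a glutamate receptor agonist used to model mesial temporal lobe epilepsy, went into the right dentate gyrus 2 weeks after the AAV, and tissue was taken 14 days later. In the PBS group, PBS was injected after the AAV; the time of collection was not given in the sources used here. The AAV control therefore differed from the KA group in the second surgery and in the time since AAV as well as in KA. Each of the 3 samples per group gave an IP library, made from RNA that came down with EGFP-tagged ribosomes on an anti-GFP antibody, and an input library made from an aliquot of the homogenate before the antibody, which holds RNA of the whole hippocampus.

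Lysosomes are acidic organelles in which proteins, lipids and sugars that arrive by endocytosis, phagocytosis or autophagy are broken down. Cathepsins are their main proteases: Ctsd is an aspartic protease and Ctsb, Ctsl, Ctsz and Ctsh are cysteine proteases, of which Ctsz and Ctsh act mainly from the ends of a chain. Lamp1 and Lamp2 are the heavily glycosylated proteins that line the lysosomal membrane, Grn encodes progranulin, Npc2 hands cholesterol out of the lysosome together with Npc1, and Psap encodes the precursor of the saposins, cofactors of glycolipid breakdown. All cells of the brain have lysosomes, and microglia, the phagocytes of the brain, are known for a high content of lysosomal enzymes, while astrocytes also take up and degrade material.

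Many lysosomal genes are known to carry an E-box, CACGTG, near their start, which is the core of the element bound by TFEB and its relatives, the main activators of lysosomal genes. Promoter sequences of RefSeq (GRCm38.p6, 250 bases before to 50 bases after the start) were at hand for 8 of the 10 genes, all but Ctsb and Ctsh. CACGTG, which reads the same on both strands, was found in 3 of these 8, in 20 of 78 genes of a wider lysosomal list described further on, and in 8.09% of 27025 genes with a promoter in the table. Ctsd held 2 matches, Lamp1 held 4 and Ctsl held 1; no match in this window was found for Ctsz, Lamp2, Grn, Npc2 or Psap, which says only that these letters are not there. The longer form TCACGTGA, which contains the E-box, was in 1 of the 8, and in 11 of the 78 listed genes and 1.12% of all genes. The stretches that hold the matches are shown in the direction of transcription, with the E-box in capitals, because they hold the motif in Ctsd and Ctsl, which rose in IP and input, and in Lamp1, which was not called in IP; a match describes the letters and shows no binding.
Ctsd, chr7:142388048-142388077, minus strand: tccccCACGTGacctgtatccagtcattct
Ctsd, chr7:142387908-142387937, minus strand: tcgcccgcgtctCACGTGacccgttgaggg
Ctsl, chr13:64370739-64370768, minus strand: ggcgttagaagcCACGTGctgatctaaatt
Lamp1, chr8:13159081-13159160, plus strand: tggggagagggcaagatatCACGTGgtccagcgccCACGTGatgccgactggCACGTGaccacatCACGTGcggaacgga
The matches began 245 and 98 bases before the RefSeq start of Ctsd, 236 bases before that of Ctsl, and 61, 45, 28 and 15 bases before that of Lamp1, where 4 matches stand in 80 bases. The stretch 98 bases before the start of Ctsd and the one of Ctsl lie inside exons of the GENCODE annotation, which begins these genes further upstream.

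The libraries held between 7991681 and 16032180 counts. The members had 20 to 22521 counts in an IP library and 51 to 17298 in an input library. Ctsh was the member most limited by counting, in IP and, with 51 to 153 counts in the AAV control and 54 to 102 in PBS, in control input. Run 1 held samples #1 and #2 of the KA group and of the AAV control, run 2 held their samples #3, and run 3 held PBS alone, so for PBS the run and the group cannot be told apart. In mean FPKM, all 8 astrocyte markers were higher in IP than in input in each group, and all 10 microglia markers and all 6 neuron markers were lower. The 5 oligodendrocyte markers were all called higher in IP than in input in the KA group (ratios of mean FPKM 1.97 to 2.71), and 0 were in the AAV control (0.476 to 1.04) or PBS (0.536 to 0.833). AAV control #3 stood apart from #1 and #2 in several members, in IP and in input, and results that rest on it are given with and without it. KA #3, also of run 2, stood apart from KA #1 and #2 as well. Its chi-square per gene against them was 76.8 and 62.7 in IP and 45.1 and 39.6 in input. Between KA #1 and #2 it was 9.59 and 4.48. Leaving out AAV control #3 alone therefore sets KA #3 of run 2 against controls of run 1. In whole tissue, more cells of a type and more RNA per cell cannot be told apart.

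In the whole hippocampus, KA raised most of these genes. Against the AAV control, 8 of the 10 members were higher in input and 0 lower (edgeR, adjusted p under 0.05), where 3.54% of the 10809 genes tested were called higher and 0.944% lower. All 8 also had a log2 fold change of at least 1, which 2.52% of genes did. Their median log2 fold change was 1.92 over all 10 members, against -0.03 over all genes tested. Against PBS, 9 of 10 were higher in input and 0 lower, where 15.5% of genes were called higher and 12.2% lower, with a median of 2.10. In the IP libraries fewer members moved. Against the AAV control, 3 of the 9 members that passed the filter (FPKM above 1 in each library) were higher, Ctsd, Ctsb and Ctsl, where 10.4% of 9729 genes were called higher and 9.74% lower, and against PBS 4 of 9, the same 3 and Lamp2, where 18.2% were higher and 18.9% lower. No member was called lower in either. Both comparisons share the KA libraries. The count against the AAV control moved with sample #3: without AAV control #3, 5 members were called higher in IP, Ctsz and Grn in addition, and in the libraries of run 1 alone 7 were, Lamp1 and Lamp2 too. The share of all genes called in either direction moved as well, from 20.1% to 33.8% without AAV control #3 and 46.0% in run 1 alone. In input, 5 were called without KA #1, where 1.23% of all genes were, 10 without AAV control #3, where 23.8% were, and 10 in run 1 alone, where 41.6% were, against 4.49% with all libraries.

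**Figure D1:**
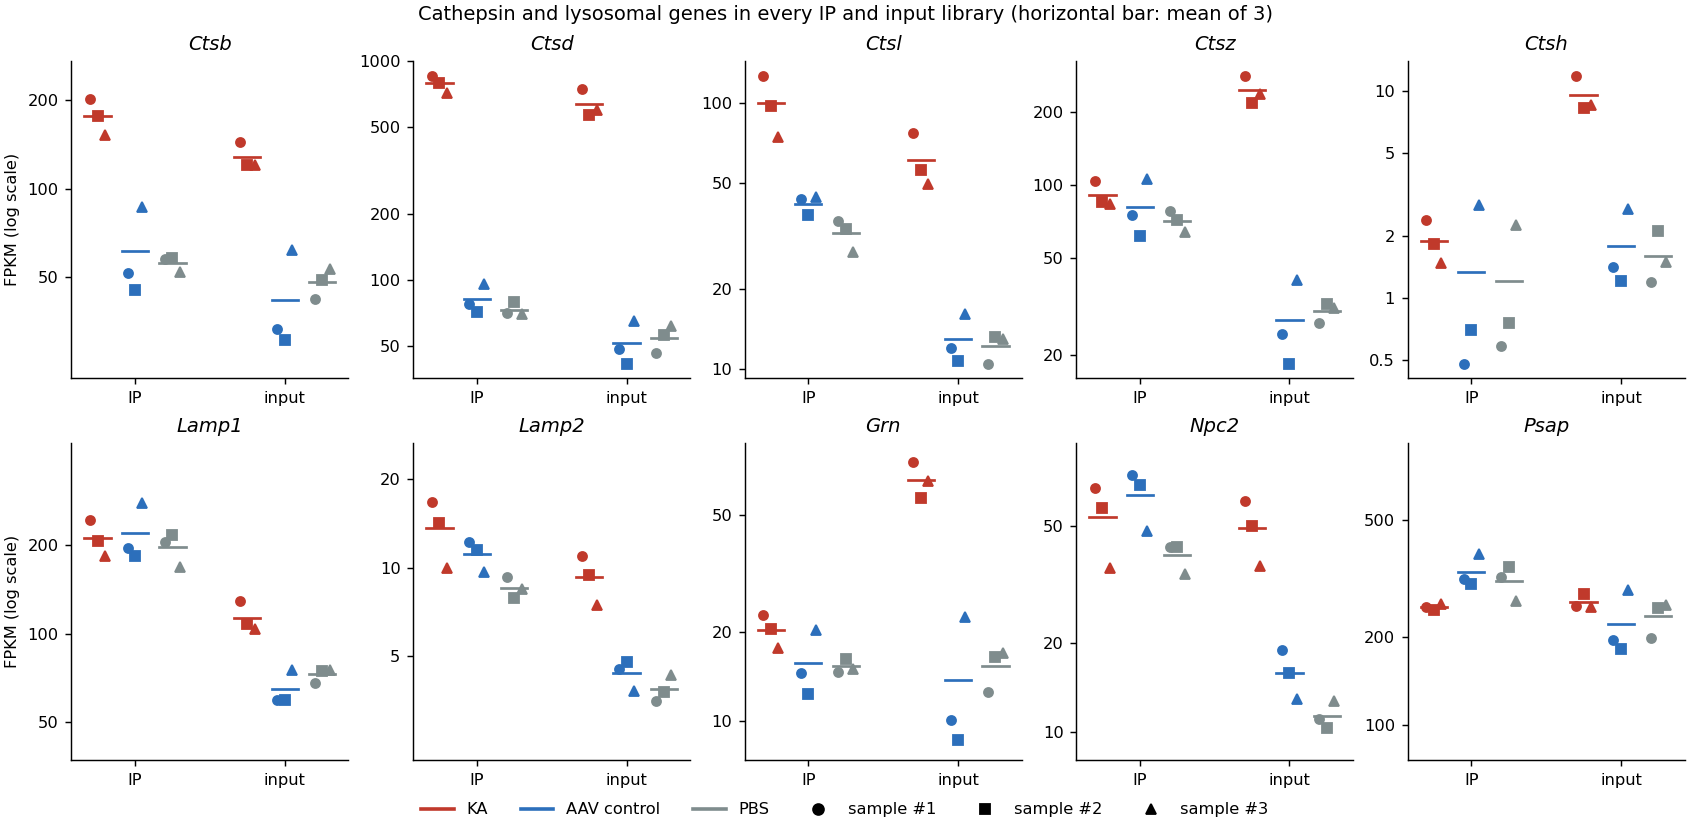
FPKM of each of the 10 genes (log axis) in the 3 IP libraries and the 3 input libraries of the KA group, AAV control and PBS group, with a mark for each sample and a bar at the mean. Ctsd, Ctsb and Ctsl stood above both controls in IP and input, whereas Ctsz, Grn and Npc2 rose in input and lay close to the controls in IP. There Ctsz and Grn lay above all PBS values and overlapped the AAV control.

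Ctsd (chr7:142375911-142388038, minus strand) changed most. It had 860.4, 796.9 and 718.0 FPKM in the KA IP libraries #1 to #3, 77.8, 71.1 and 96.2 FPKM in those of the AAV control, and 70.6, 79.2 and 69.6 FPKM in those of PBS. The KA libraries were all far above the controls, and the controls overlapped each other. The fitted log2 fold change in IP was 3.31 (SE 0.250, adjusted p = 0.000348) against the AAV control, a 9.69-fold ratio of mean FPKM, and 3.42 (SE 0.286, adjusted p = 2.52e-05) against PBS. In input it had 746.1, 569.4 and 598.0 FPKM after KA, 48.5, 41.3 and 64.8 in the AAV control and 46.1, 55.9 and 61.3 in PBS, and the log2 fold changes were 3.62 (SE 0.268, adjusted p = 0.000640) and 3.54 (SE 0.153, adjusted p = 1.31e-07). Within run 1 the ratio of means to the AAV control was 11.1 in IP and 14.6 in input, and in the single pair of run 2 it was 7.47 and 9.23. Leaving out any 1 library kept all 4 calls. Ctsd made up 8.92% to 9.03% of the summed FPKM of the 10 genes in AAV control IP, 45.3% to 46.8% in KA IP and 38.6% to 41.6% in KA input. By mean FPKM it came after Psap and Lamp1 in IP and input of both controls, and before all other members in IP and input of the KA group, where its values did not overlap those of the next, Psap.

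Ctsb (chr14:63122462-63145923, plus strand) and Ctsl (chr13:64359337-64370890, minus strand) rose in both kinds of library. Ctsb had 201.4, 176.8 and 152.6 FPKM in KA IP, 51.7, 45.2 and 86.8 in AAV control IP and 57.6, 58.3 and 51.9 in PBS IP. Its log2 fold change against the AAV control was 1.55 in IP (SE 0.318, adjusted p = 0.0142) and 1.59 in input (SE 0.318, adjusted p = 0.0323). Against PBS it was 1.65 in IP (adjusted p = 0.000873) and 1.41 in input (adjusted p = 1.66e-05). The comparison with the AAV control leaned on the number of libraries: the IP call was lost without KA #1, AAV control #1 or AAV control #2 (highest adjusted p = 0.0623) and the input call without any of the 6 libraries except AAV control #3 (highest adjusted p = 0.160), while the fold change stayed between 1.34 and 1.97 in IP. No omission ended the calls against PBS. Within run 1 the ratio of mean Ctsb FPKM was 3.90 in IP, and in run 2 it was 1.76. Ctsl had 126.3, 97.3 and 74.1 FPKM in KA IP, 43.3, 37.7 and 44.3 in AAV control IP and 36.0, 33.6 and 27.5 in PBS IP, with no overlap between KA and the controls. The log2 fold change of Ctsl was 1.28 in IP (SE 0.224, adjusted p = 0.00772) and 2.21 in input (SE 0.244, adjusted p = 0.00301) against the AAV control, and 1.59 (adjusted p = 0.00124) and 2.30 (adjusted p = 2.02e-06) against PBS. Part of the Ctsb gene overlaps Fdft1 on the other strand over 774 bases, and how strands were counted is not stated.

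Ctsz followed a different course, and Ctsh could be tested between groups in input alone. Ctsz (chr2:174427493-174439039, minus strand) had 281.9, 217.7 and 236.3 FPKM in KA input, 24.5, 18.4 and 40.8 in AAV control input and 27.2, 32.5 and 31.2 in PBS input. Its log2 fold change in input was 3.11 against the AAV control (SE 0.335, adjusted p = 0.00266) and 3.01 against PBS (SE 0.129, adjusted p = 1.31e-07), the second largest of the members after Ctsd. In IP it had 103.7, 85.3 and 83.6 FPKM after KA, 75.4, 61.5 and 105.7 in the AAV control and 78.1, 71.7 and 64.4 in PBS. The KA and AAV control IP libraries overlapped, and the KA values lay above all PBS values. The log2 differences were 0.20 (SE 0.258, adjusted p = 0.637) against the AAV control and 0.34 (SE 0.187, adjusted p = 0.176) against PBS. The first of these turned on AAV control #3: without it the log2 fold change was 0.52 (adjusted p = 0.0424). The ratio of Ctsz FPKM in IP to the AAV control was 1.38 within run 1 and 0.791 in the single pair of run 2. Ctsh (chr9:90054152-90076089, plus strand) rose in input, from 1.42, 1.21 and 2.70 FPKM in the AAV control to 11.9, 8.33 and 8.61 in the KA group, with a log2 fold change of 2.39 (SE 0.338, adjusted p = 0.00784; 0.0524 without KA #1) and 2.57 against PBS (adjusted p = 8.38e-06). In IP Ctsh had 2.38, 1.81 and 1.48 FPKM after KA, 0.479, 0.697 and 2.81 in the AAV control and 0.583, 0.759 and 2.27 in PBS. The ratio of Ctsh FPKM in IP to the AAV control was 3.56 within run 1 and 0.527 in the single pair of run 2. Ctsh did not pass the filter in IP, so the groups were not tested there.

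The membrane proteins changed less. Lamp2 (chrX:38401357-38456454, minus strand) had 10.9, 9.46 and 7.47 FPKM in KA input against 4.52, 4.78 and 3.82 in the AAV control, a log2 fold change of 1.09 (SE 0.145, adjusted p = 0.00607), and 1.25 against PBS (SE 0.114, adjusted p = 3.03e-05). In IP its log2 difference was 0.34 against the AAV control (SE 0.182, adjusted p = 0.237), with overlapping groups, and 0.66 against PBS (SE 0.189, adjusted p = 0.0199), a call that was lost without KA #1, KA #2 or PBS #3 (highest adjusted p = 0.0978). Lamp1 (chr8:13159161-13175338, plus strand) is among the most abundant members, at 169 to 279 FPKM in the 9 IP libraries. In input it had 129.0, 108.0 and 103.6 FPKM after KA, and 59.5, 59.6 and 75.2 in the AAV control, which did not overlap (12.2% of genes were higher without overlap in that comparison); the log2 difference of 0.80 missed the threshold (SE 0.183, adjusted p = 0.0514). It passed with the sample number as a block (0.81, adjusted p = 0.0106), although same-numbered samples of these groups are pools of different mice. It also passed with run as a covariate, library totals, DESeq2, limma-voom or no FPKM filter (highest adjusted p = 0.0428), and without AAV control #3 (0.98, adjusted p = 0.00114). Against PBS, Lamp1 rose by 0.63 in input (SE 0.107, adjusted p = 0.00196). In IP the Lamp1 groups overlapped, with log2 differences of -0.02 (SE 0.254) against the AAV control and 0.08 (SE 0.247) against PBS. Lamp1 overlaps Grtp1 on the other strand over 3317 bases, but Grtp1 held 122 counts at most.

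Among the luminal proteins, Grn and Npc2 rose in input, and Psap was not called in any comparison of groups with all libraries. Without AAV control #3, Psap was called in input against the AAV control (0.53, adjusted p = 0.0149). The ratio of Psap FPKM in input was 1.42 within run 1 and 0.879 in the single pair of run 2. Grn (chr11:102430315-102437048, plus strand), whose mouse and human loss is known to disturb lysosomes in microglia and neurons, had 75.7, 57.2 and 65.4 FPKM in KA input, 10.1, 8.59 and 22.6 in AAV control input and 12.6, 16.6 and 17.04 in PBS input. Its log2 fold change was 2.23 against the AAV control (SE 0.397, adjusted p = 0.0205) and 2.10 against PBS (SE 0.134, adjusted p = 1.98e-06). The first call was lost without any of the KA input libraries or AAV control #1 (highest adjusted p = 0.109), and the second never. In IP, Grn had 22.9, 20.5 and 17.8 FPKM after KA, 14.6, 12.3 and 20.3 in the AAV control and 14.7, 16.3 and 15.1 in PBS. Its log2 difference against the AAV control was 0.40 (SE 0.241, adjusted p = 0.286), and 0.71 without AAV control #3 (adjusted p = 0.00920). The ratio of Grn FPKM in IP was 1.61 within run 1 and 0.874 in the single pair of run 2. Against PBS, the KA values of Grn lay above all PBS values, with a log2 difference of 0.40 (SE 0.171, adjusted p = 0.0913). Npc2 (chr12:84754562-84773152, minus strand) had 61.1, 50.2 and 36.5 FPKM in KA input and 18.9, 15.8 and 12.9 in AAV control input, a log2 fold change of 1.63 (SE 0.190, adjusted p = 0.00345), and 2.10 against PBS (SE 0.150, adjusted p = 4.43e-06). In IP the 9 Npc2 values spread from 34.5 to 74.9 FPKM and the KA libraries overlapped both controls. Psap (chr10:60277627-60302597, plus strand) had 252.9, 247.5 and 258.5 FPKM in KA IP, 314.6, 303.6 and 381.8 in AAV control IP and 319.4, 345.3 and 264.8 in PBS IP. Its KA values lay below all control values, which in these 2 comparisons held for 20.2% and 23.3% of genes, and the log2 differences of -0.35 (SE 0.222, adjusted p = 0.310) and -0.30 (SE 0.265, adjusted p = 0.392) were not called.

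**Figure D2:**
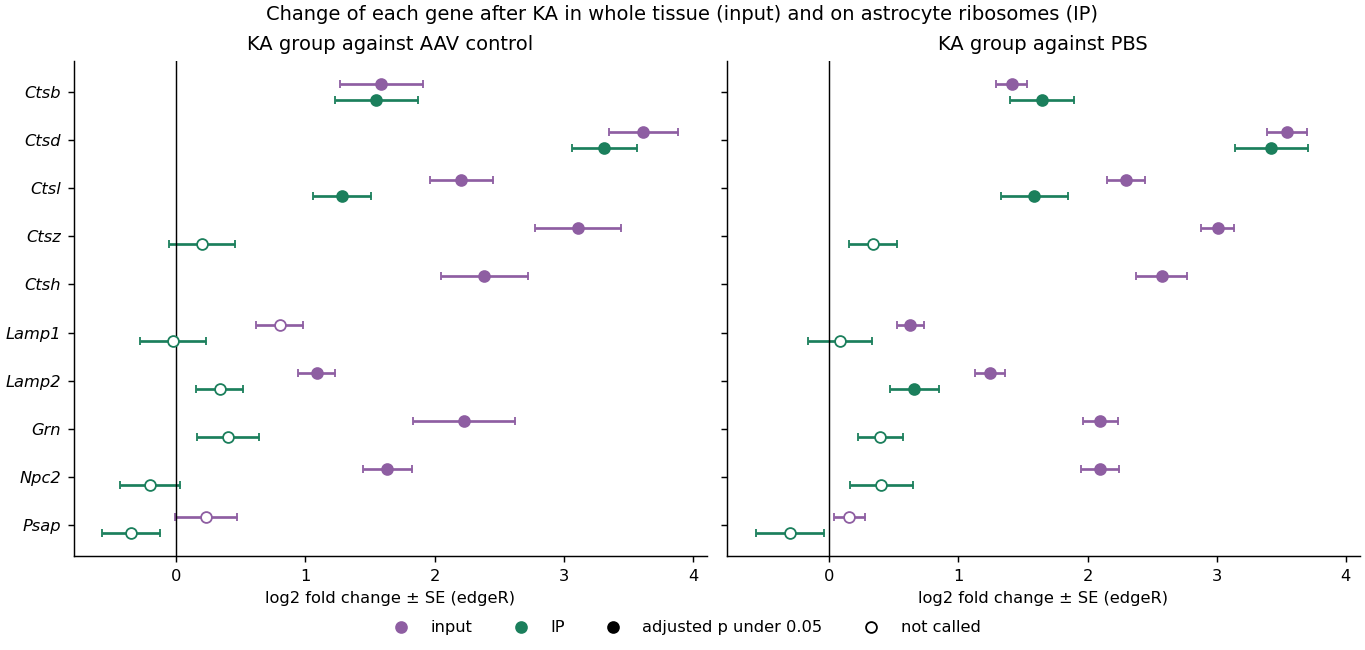
Fitted log2 fold change of each gene in the KA group against the AAV control (left) and against PBS (right), in input (purple) and IP (green), with the SE as bars; filled points have an adjusted p under 0.05. Ctsb and Ctsd have nearly equal effects in input and IP, and those of Ctsz, Grn and Npc2 lie at 1.63 to 3.11 in input and at -0.20 to 0.40 in IP.

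Between the controls no member was called. PBS against the AAV control gave 0 called members in IP and 0 in input, where 0% of all genes were called by edgeR; at an unadjusted p under 0.05 these were 10.8% and 8.25% of genes, and DESeq2 also called 0 members and limma-voom 0. Npc2 had an edgeR p under 0.05 before adjustment, with a log2 difference of -0.62 in IP (adjusted p = 0.449) and -0.45 in input (adjusted p = 0.561), and no other member did. The input comparison rested on AAV control #3: without it, 7 members were called, where 36.5% of all genes were, among them Grn at 0.80 and Ctsb at 0.66 higher in PBS and Npc2 at -0.53. The comparisons of KA with PBS do not contain that library.

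The ratio of IP to input FPKM within each homogenate sets RNA on the tagged ribosomes against that of the whole tissue. In the AAV control, 6 members were higher in IP than in input by edgeR, Npc2, Lamp1, Ctsl, Ctsz, Lamp2 and Ctsd, and 0 lower, of 9 tested, where 19.4% of genes were higher and 20.3% lower; the same 6 were higher in PBS and 0 lower, where 28.6% of genes were higher and 27.7% lower. In the KA group 5 were higher, Lamp1, Ctsl, Lamp2, Ctsb and Ctsd, and Ctsh, Grn and Ctsz were lower, of 10 tested, where 19.1% of genes were higher and 15.3% lower. On library totals without TMM, where the median of all genes in the KA group was -0.21, only Lamp1 and Ctsl were called higher and the same 3 lower. Ctsd was near the threshold in each group: its call was lost in 4 of 6 omissions of a library in the AAV control (highest adjusted p = 0.147), 3 of 6 in PBS (0.105) and 5 of 6 in the KA group (0.228). Npc2 had the highest mean ratio in the AAV control, 4.02 ± 0.326 (SD, n = 3), and 3.57 ± 0.760 in PBS, but 1.08 ± 0.0832 in the KA group, where its IP and input levels were not called different (log2 0.34, adjusted p = 0.257). The ratio of Ctsz was 3.08, 3.35 and 2.59 in the AAV control pairs, 2.87, 2.21 and 2.06 in the PBS pairs and 0.368, 0.392 and 0.354 in the KA pairs. The Ctsz ratio thus went from above 1 in each control pair to below 1 in each KA pair. The ratio of Grn was 1.45, 1.43 and 0.898 in the AAV control, 1.17, 0.982 and 0.885 in PBS and 0.302, 0.359 and 0.272 in the KA group. Ctsd had a ratio of 1.25 ± 0.131 in the KA group, 1.60 ± 0.119 in the AAV control and 1.36 ± 0.203 in PBS. Because an IP and its input come from the same homogenate, they were also compared as pairs: 9 of 9 members in the AAV control were then higher in IP, Ctsb (adjusted p = 0.000536), Grn (0.0342) and Psap (0.000844) in addition, where 61.3% of all genes were called in either direction against 39.7% unpaired. Without AAV control input #3 the unpaired fit also called 9 of 9, where 39.7% of genes were.

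**Figure D3:**
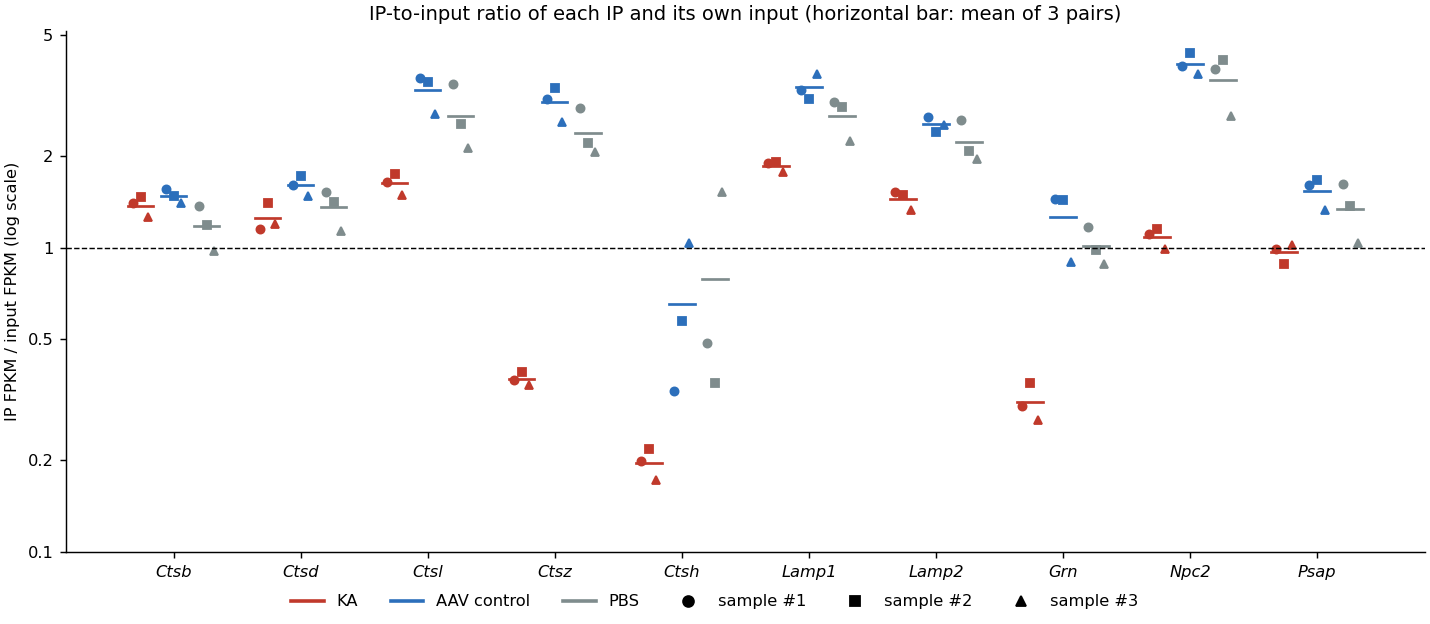
Ratio of IP to input FPKM (log axis) for each of the 3 pairs of libraries in the KA group, AAV control and PBS group; the dashed line marks equal levels and bars are means. The KA pairs of Ctsz, Ctsh and Grn lie between 0.172 and 0.392, and those of Ctsd and Ctsb lie above 1.

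An interaction over the 12 libraries of 2 groups asked whether IP and input responded differently to KA. Against the AAV control, the IP-to-input difference was lower in the KA group for 4 of 9 members and higher for 0, where 6.27% of genes were lower and 7.01% higher: Ctsz by -2.89 (SE 0.443, adjusted p = 0.00154), Npc2 by -1.80 (SE 0.302, adjusted p = 0.00259), Grn by -1.81 (SE 0.498, adjusted p = 0.0326) and Lamp2 by -0.72 (SE 0.218, adjusted p = 0.0489). Against PBS it was lower for 3 of 9 and higher for 0, where 14.6% of genes were lower and 10.4% higher: Ctsz by -2.66 (SE 0.233, adjusted p = 3.47e-05), Grn by -1.69 (SE 0.218, adjusted p = 0.000222) and Npc2 by -1.69 (SE 0.306, adjusted p = 0.00185). Ctsz and Npc2 kept both calls whichever library was left out. Grn lost the call against the AAV control in 8 of 12 omissions (highest adjusted p = 0.0808) and Lamp2 in 9 of 12 (highest adjusted p = 0.145). With the homogenate as a block, the share of all genes called in either direction went from 13.3% to 36.0% against the AAV control and from 25.0% to 37.6% against PBS. In that fit 7 members were lower against the AAV control, with Ctsl (-0.92, adjusted p = 0.000477), Lamp1 (-0.77, adjusted p = 0.00171) and Psap (-0.58, adjusted p = 0.0141) in addition, and 5 against PBS, with Ctsl (-0.68, adjusted p = 0.0171) and Lamp2 (-0.58, adjusted p = 0.0136). For Ctsb and Ctsd the interaction was not called in either fit: against the AAV control it was -0.02 (SE 0.470) for Ctsb and -0.28 (SE 0.328) for Ctsd, and against PBS 0.24 (SE 0.249) and -0.11 (SE 0.272). Both interactions share the KA libraries.

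Markers of other cell types moved with KA in these libraries. The 10 microglia markers, among them the complement genes C1qa, C1qb and C1qc and the receptors Cx3cr1 and Trem2, summed to 148 to 353 FPKM in AAV control input, 214 to 240 in PBS input and 2102 to 2949 in KA input, and 10 of 10 rose in input against either control. Their sum in IP was 47.1 to 74.1 FPKM after KA and 15.6 to 27.7 in the AAV control, and none of the 10 was at 0 in all libraries of a group. The ratio of the summed IP to the summed input was 0.0224 to 0.0251 in the KA pairs and 0.0783 to 0.106 in those of the AAV control, and the single markers lay between 0.0139 and 0.144 in the KA group. The ratio in the KA group was 0.371 for Ctsz, 0.311 for Grn and 0.196 for Ctsh, above every microglia marker, and that of Ctsd was 1.25. The 6 neuron markers had ratios of 0.266 to 0.587 in the KA group, a range that holds Ctsz and Grn. The 5 endothelial markers had 0.118 to 0.303, a range that holds Ctsh. Markers of perivascular or infiltrating macrophages summed to 0.218 to 0.493 FPKM in KA IP and 6.03 to 8.45 in KA input. The part of microglia in the input rise was not tested. In the KA IP libraries, the 5 oligodendrocyte markers summed to 1177 to 2265 FPKM, against 199 to 876 in AAV control IP. In PBS IP their sum was 222 to 471. The 6 neuron markers summed to 219 to 296 in KA IP, 96.8 to 143 in AAV control IP and 110 to 185 in PBS IP. Against the AAV control, 2 of the 5 and 3 of the 6 were called higher in IP, where 10.4% of genes were. Against PBS, 5 of the 5 and 3 of the 6 were, where 18.2% of genes were. The part of these cells in the IP changes of Ctsd, Ctsb and Ctsl was not tested either. The 8 astrocyte markers summed to 5179 to 6179 FPKM in KA IP and 3129 to 4051 in AAV control IP. Gfap, the filament protein of reactive astrocytes, went from a mean of 677 to 3684 FPKM and Aqp4 rose too, while Slc1a2, Slc1a3 and Gja1 fell, Slc1a2 from a mean of 1359 to 480.1 FPKM, and the other 3 were not called. The ratio of the summed IP to the summed input of these markers was 5.09 to 6.46 after KA and 8.48 to 10.9 in the AAV control. Among the single astrocyte markers it was 1.89 to 9.79 after KA and 6.21 to 19.6 in the AAV control. By the interaction, the IP-to-input difference was lower in the KA group for 6 of the 8 against the AAV control, where 6.27% of genes were. Against PBS it was lower for 5 of the 8, where 14.6% of genes were, and it was higher for 0 in either comparison.

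**Figure D4:**
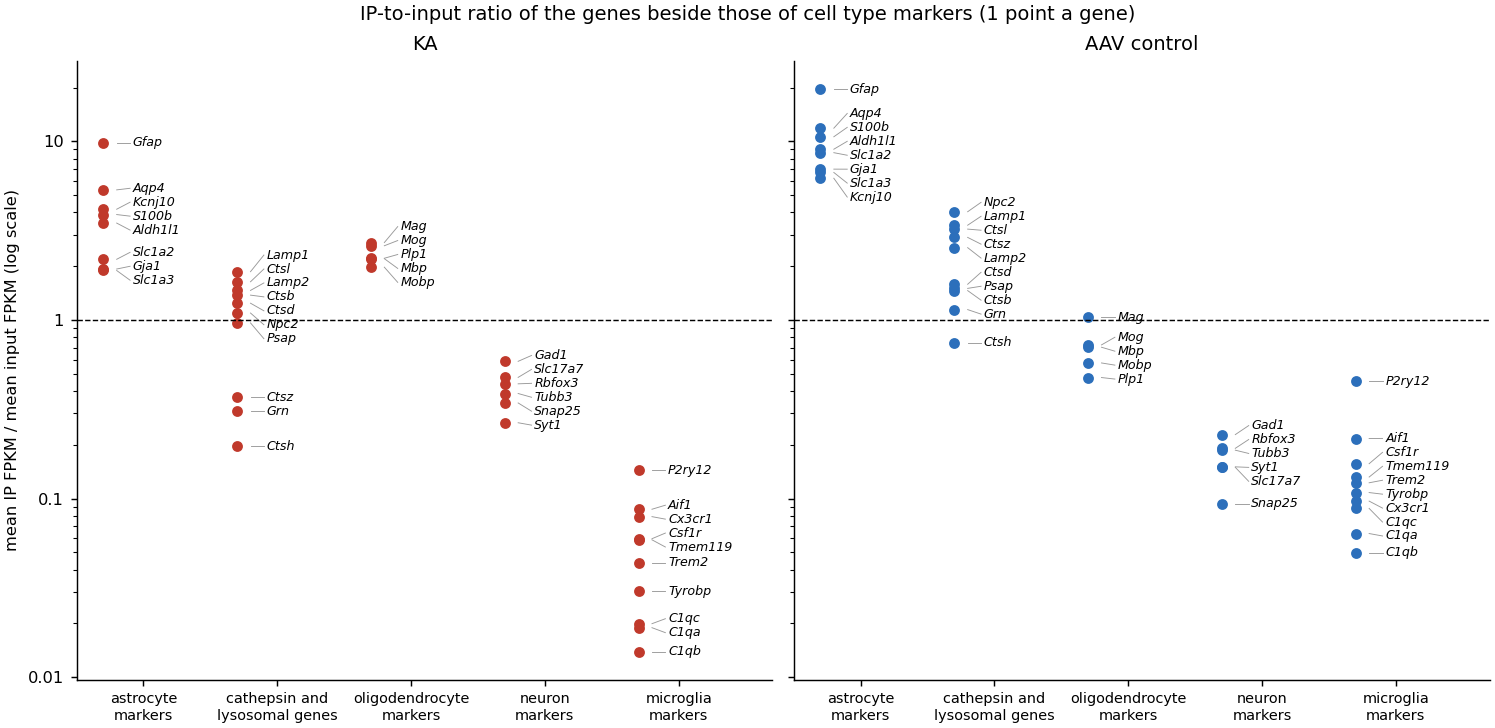
Mean IP FPKM divided by mean input FPKM (log axis) for the 10 genes and for markers of astrocytes, oligodendrocytes, neurons and microglia, 1 point a gene, in the KA group and the AAV control. In the KA group Ctsz, Grn and Ctsh lie between the other members and the microglia markers, all of which are at or below 0.144. The neuron markers lie at 0.266 to 0.587 there, a range that holds Ctsz and Grn.

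A wider list of 104 lysosomal genes puts the 10 in context. In input against the AAV control, 16 of the 87 listed genes tested were higher and 0 lower, where 3.54% and 0.944% of all genes were, with a median log2 fold change of 0.33, against -0.03 over all genes. The genes with the smallest p were Cd63, a tetraspanin of late endosomes (2.05, adjusted p = 0.000977), Hexa, a subunit of hexosaminidase (1.68, adjusted p = 0.00303), the carboxypeptidase Scpep1 (1.44, adjusted p = 0.00345), Ctss, a cathepsin known from microglia and other antigen-presenting cells (3.37, adjusted p = 0.00452), and Atp6v0e of the proton pump (0.96, adjusted p = 0.00735). In IP against the AAV control, 14 of 84 listed genes were higher and 5 lower, where 10.4% and 9.74% of all genes were, with a median of 0.20, and 10 of the 14 were subunits or partners of the proton pump, the V-ATPase that acidifies the lysosome and also loads synaptic vesicles. Atp6v1b2 rose by 1.18 (adjusted p = 0.00368), Atp6v1a by 1.17 (adjusted p = 0.00699) and Atp6ap2 by 0.96 (adjusted p = 0.00468), and Gla, an alpha-galactosidase, by 1.37 (adjusted p = 0.00594). In input, by contrast, 1 of the 18 pump genes tested was called, Atp6v0e, and in AAV control hippocampus 12 of 18 were lower in IP than in input, where 20.3% of all genes were. Of the 6 neuron markers, Slc17a7, Snap25 and Gad1 also rose in IP, and their part in the pump genes' values was not tested. Among the listed genes that fell in IP were Tpcn1, a two-pore channel of endolysosomes (-1.76, adjusted p = 0.00196), and the cathepsin Ctsf (-1.04, adjusted p = 0.0131). Of 82 listed genes tested in both kinds of library, 14 were called in input and 19 in IP, and 2 in both, Cd63 and Ctss, which were higher in each. Ctss reached 543 to 768 FPKM in KA input, but 8.06 to 33.1 in KA IP, so that its fitted log2 difference of IP from input was -4.78, a far lower place than that of Ctsd at 0.53.

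**Figure D5:**
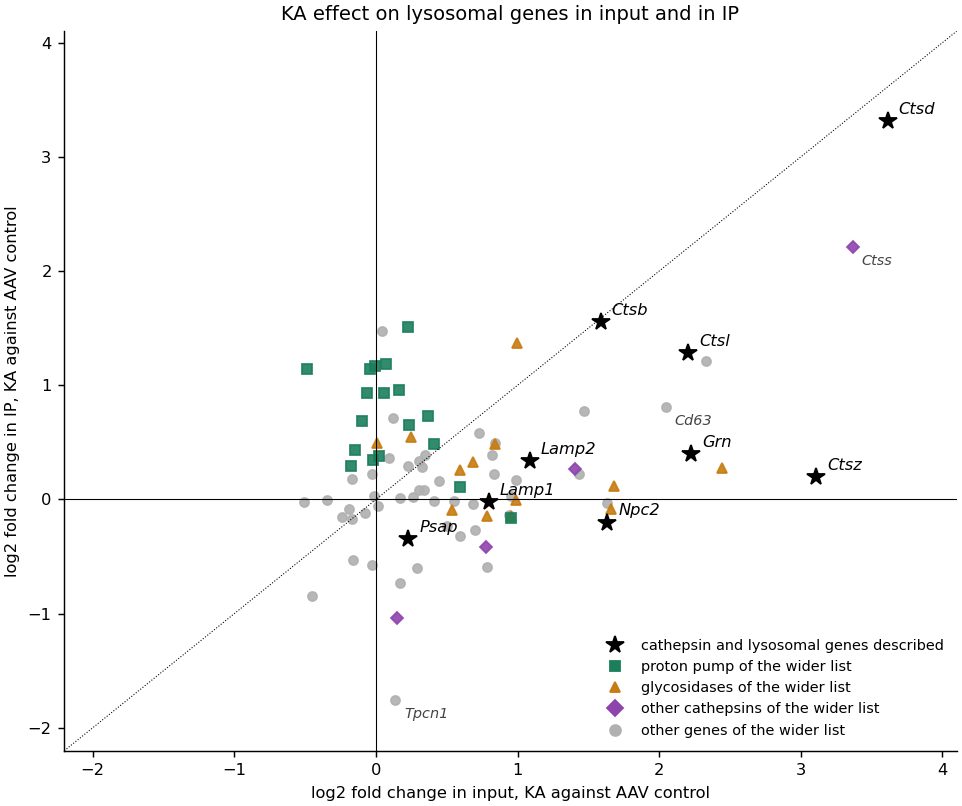
Log2 fold change of KA against the AAV control in input (x) and IP (y) for the members (stars) and the wider list, with proton pump genes as squares, glycosidases as triangles and other cathepsins as diamonds; the dotted line marks equal effects. Ctsd and Ctsb lie near the line, Ctsz, Grn and Npc2 lie far to its right, and most pump genes lie above it.

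Against PBS, 35 of 87 listed genes were higher in input and 10 lower, where 15.5% and 12.2% of all genes were, and in IP 22 of 84 were higher and 10 lower, where 18.2% and 18.9% were. By class, 10 of 13 glycosidases were higher in input against PBS and 0 lower, 5 of 7 other proteases and thioesterases were higher, and of 18 pump genes 2 were higher and 2 lower. In IP against PBS, 9 of 18 pump genes were higher and 0 lower, and 3 of 12 glycosidases were higher and 1 lower.

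Genes with the most similar course over the 18 libraries were sought by the root mean square difference of mean-centred log2(FPKM + 1) among 9001 genes with FPKM above 1 in all of them. Ctsz was closest to Cyba (0.1704), a subunit of the phagocyte NADPH oxidase, and then to Grn (0.552). Ctsh and Grn were both closest to Unc93b1 (0.328 and 0.245), which carries Toll-like receptors to endolysosomes. Ctsd, whose own root mean square was 1.66, was closest to the stress-response gene Nupr1 (0.623), and Ctsb to Arpc1b (0.2004), a subunit of the Arp2/3 complex. Lamp1 was closest to Gm2a (0.102), the GM2 activator of the lysosome, Lamp2 to Stat3 (0.151), Npc2 to Zfp36l1 (0.244), Ctsl to the receptor gene Tnfrsf1a (0.316) and Psap to Txn2 (0.0934).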

How the data were processed

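The authors aligned reads to mm10 with STAR and deposited, per library, a count and an FPKM value for each gene symbol; per the labels featureCounts was also used, and versions, annotation, strandedness and the handling of reads shared between genes are not given in the sources used here. The deposited counts are whole and not normalized, and the deposited FPKM values equal the count over library size and a fixed gene length for all 10 members. These lengths (1440 for Ctsz to 9546 bases for Lamp2) set the order of levels between genes. The 10 genes, the wider list and the tests were chosen with earlier results of these data known.

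Differential expression used edgeR 4.0.16 in R 4.3.3 (quasi-likelihood test, TMM, Benjamini-Hochberg over all genes tested) on genes with FPKM above 1 in all compared libraries (for the interaction, in the IP libraries of both groups); SE was the fold change over the root of F. DEGs also changed by at least 1 on the log2 scale. The tests were tested on simulated data. Nothing in the labels says how the pools were made beyond the 3 to 4 mice each, so p-values measure the spread between 3 pools. Same-numbered samples of the KA group and AAV control deviated together (correlations of 0.349 to 0.552). An IP and its input had correlations of 0.479 to 0.752 in these 2 groups and of 0.155 to 0.325 in PBS. The IP libraries #1 of PBS and the AAV control, of different mice and runs, had 0.355. Same-numbered KA and AAV control samples also shared a run, and their mice differed. The main fits held no block. In an alternative fit of every comparison, PBS included, the sample number or, in the interaction, the homogenate was a block. No pair of replicate libraries agreed within counting noise (lowest chi-square per gene 4.48). Named were all members, the 5 listed genes of smallest p per comparison whose groups did not overlap, defining markers, overlapping genes and nearest genes; Gla and other listed genes followed that rule, a listed gene it also names is not reported here, and Ctsf was named after its values were seen. Of 55291 symbols, 53292 matched GENCODE on GRCm38, the source of coordinates. Promoters came from RefSeq. Alternatives were RLE size factors, library totals, no FPKM filter, DESeq2 1.42.0, limma-voom (limma 3.58.1), blocks, run as a covariate, run 1 alone and leaving out each library.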

Additional observations from a re-analysis of the deposited data

Results flagged for a closer look

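The effect of KA differed between IP and input for 4 members against the AAV control and for 3 against PBS, each by the interaction test of edgeR. The log2 differences were -2.89 for Ctsz, -1.80 for Npc2, -1.81 for Grn and -0.72 for Lamp2 against the AAV control, and -2.66 for Ctsz, -1.69 for Grn and -1.69 for Npc2 against PBS. In each case the level in input rose in all 3 KA libraries above the controls, and in IP the KA level was not called against the AAV control. Lamp2 was called in IP against PBS (0.66), and its interaction there was not called (-0.58, adjusted p = 0.0710). The same test also gave a lower IP-to-input difference for 6 of the 8 astrocyte markers against the AAV control and for 5 against PBS.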

How the results depend on the processing

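With 3 pools per group and run tied to PBS, the calls rest on few libraries. Of 150 alternative counts of called members, 134 stayed within 1.5 times the reported count. The counts of 8 and 9 of 10 in input could not rise past that limit, and 0 against 0 between the controls was taken as unmoved. Of 1400 alternative fold changes of members, 1248 kept direction and side of the threshold. Of the rest, 53 gained a call, 56 lost it and 43 changed sign. The cause was not tested. The calls of Ctsd and Ctsl in IP and input, and of Ctsz and Npc2 in input and in both interactions, held under every alternative that leaves out 1 library.

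In run 1 alone, 7 members were called in KA against AAV control IP, where 46.0% of all genes were, against 20.1% with all libraries. In the interaction against the AAV control, 7 were called with the replicate block, with run as a covariate and in run 1 alone. Of all genes 36.0%, 29.0% and 33.6% were, against 13.3% in the main fit. In the interaction against PBS, 5 were called with the replicate block, where 37.6% of all genes were, against 25.0% in the main fit. Library totals without TMM, with which the median of all genes went from 0.011 to -0.21, gave 5 called in IP against input of the KA group. There 35.9% of all genes were called, against 34.4% with TMM. The block changed no other count of members by more than 1.5 times. Lamp1 in KA against AAV control input gained a call under the block (0.81, adjusted p = 0.0106), as did Npc2 in IP against input of the KA group (0.33, adjusted p = 0.00971).

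Leaving out 1 library at a time, the called members ranged from 2 to 5 in KA against AAV control IP, from 5 to 10 in input, from 0 to 7 in PBS against AAV control input, from 5 to 9 in IP against input of the KA group, from 2 to 4 in the interaction against the AAV control and from 3 to 7 in that against PBS (7 without PBS IP #3). The 5 of the KA group came without input #2, where 22.5% of all genes were called, and the 9 without IP #3, where 39.3% were. The 2 of the interaction came without KA IP #2 or #3, KA input #1, or AAV control input #1 or #2. There 8.34% to 11.1% of all genes were called, and 24.7% where the interaction against PBS had 7. In KA against AAV control IP, the 2 came with 9.31% to 10.6% of all genes called and the 5 with 33.8%. In input the 5 came with 1.23% and the 10 with 23.8%. The 7 of PBS against AAV control input came with 36.5%. The called genes of the wider list ranged from 6 to 32 in KA against AAV control IP, with 19 reported. There were 30 with the replicate block and 46 in run 1 alone. In input they ranged from 5 to 47, with 16 reported. They were 25 with DESeq2, 31 without the FPKM filter, 32 with the replicate block and 60 in run 1 alone. Each range had its highest count without AAV control #3. Of all genes, 20.1% were called in that IP comparison with all libraries and 33.8% without AAV control #3. The share was 34.5% with the replicate block and 46.0% in run 1 alone. In input the shares were 4.49% with all libraries, 23.8% without AAV control #3 and 41.6% in run 1 alone. They were 8.13% with DESeq2, 5.65% without the FPKM filter and 10.2% with the replicate block. In the interaction against the AAV control, 19 became 47 with the replicate block. There the share went from 13.3% to 36.0%.

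Signs turned for differences that were not called with all libraries. Lamp1 in KA against AAV control IP was 0.064 without the FPKM filter, 0.022 with limma-voom, 0.018 with the replicate block, 0.021 with run as a covariate and 0.31 in run 1 alone, where it was called (adjusted p = 0.0472), and -0.17 to 0.26 when 1 library was left out; against PBS it was -0.076 to 0.24. Grn in PBS against AAV control IP was 0.031 with limma-voom and 0.033 with the replicate block. Library totals gave -0.055 for Psap in IP against input of the KA group and -0.0038 for Grn in PBS. The interaction of Ctsb against the AAV control was 0.091 without the filter, 0.0038 in run 1 alone and -0.46 to 0.43 with 1 library left out, and that of Ctsd against PBS was 0.13 without the filter and -0.24 to 0.080. In PBS against AAV control IP the ranges were -0.31 to 0.31 for Ctsb, -0.31 to 0.078 for Ctsd, -0.34 to 0.16 for Ctsz, -0.31 to 0.16 for Lamp1, -0.19 to 0.29 for Grn and -0.27 to 0.11 for Psap. In input they were -0.057 to 0.35 for Ctsd, -0.20 to 0.18 for Ctsl, -0.11 to 0.59 for Ctsz, -0.44 to 0.37 for Ctsh, -0.11 to 0.80 for Grn and -0.040 to 0.39 for Psap. Without AAV control #3, those of Ctsd, Ctsz, Grn and Psap passed the threshold.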
